A study of Mus musculus with 21 samples.

Results

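The 8 genes described here encode regulators of the NRF2 pathway: Nfe2l2, Nfe2l1, Keap1, Maff, Mafg, Mafk, Bach1 and Sqstm1. They were chosen by name, all 8 were found among the 24263 gene symbols of the count table, and all 8 passed the filter on low counts in every fit. RNA sequencing had been done on 21 mouse libraries, with 3 libraries in each of 7 groups. BV2, an immortalised microglial line labelled as C57BL/6, gave BV2_ACR (acrylamide, 1 mM) and BV2_PBS (phosphate-buffered saline, the vehicle). The other 5 groups were 1C11NE cells, which are 1C11 neuroectodermal cells of strain label 129 after 12 days with dibutyryl cAMP, dimethyl sulfoxide and a cyclohexanecarboxylic acid. In ACR-CM they received medium from BV2 cells that had been given 1 mM acrylamide. In PBS-CM+ACR they received medium from vehicle-treated BV2 cells and were themselves given 1 mM acrylamide, and in PBS-CM they received the same kind of medium alone. The groups without conditioned medium were ACR (1 mM acrylamide) and PBS (vehicle). All treatments lasted 24 h. Acrylamide is an electrophile that reacts with thiols and is toxic to nerve cells. The labels name different base media for the lines, so a possible difference in base medium and the conditioning cannot be told apart in any comparison of PBS-CM with PBS. They do not say whether acrylamide was still present in the ACR-CM medium. ACR-CM is counted below among the acrylamide groups and comparisons because its donor cells were exposed. Nothing states that the libraries of a group came from separate cultures, so the p-values describe the spread among these libraries, and that spread may be technical.

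NRF2, the product of Nfe2l2, is the transcription factor that turns on genes for glutathione, NADPH and detoxification when electrophiles or oxidants enter a cell. In unstressed cells KEAP1 binds NRF2 and delivers it to a ubiquitin ligase, and electrophiles that modify KEAP1 thiols let NRF2 build up. NRF2 binds DNA at antioxidant response elements only as a pair with a small Maf protein (MAFF, MAFG or MAFK), BACH1 occupies the same elements as a repressor, and the autophagy receptor p62, encoded by Sqstm1, can take KEAP1 away from NRF2. Much of this control acts on proteins, and the libraries measured transcripts alone.

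NRF2 is known to act on genes of its own pathway, and for that reason the start of each regulator gene was searched for the core of the antioxidant response element, TGACNNNGC. Only this motif was searched, on both strands (read on the other strand it is GCNNNGTCA), in the RefSeq promoter windows of build GRCm38.p6, which hold 250 bases before and 50 bases after a transcript start. All 8 genes had a window, and 4 of the 8 held the core. The core was not found in the 1 window each of Sqstm1, Keap1 and Bach1 or in the 5 windows of Nfe2l1. It was present in 12.4% of all 32851 windows and in 14.0% of the 27025 genes with a window, and in 7 of 16 target enzyme genes with a window. The 4 stretches are shown 5′ to 3′ on the strand of the gene, with the core or its reverse complement in capitals.
Nfe2l2: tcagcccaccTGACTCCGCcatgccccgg
Maff: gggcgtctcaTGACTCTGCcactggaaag
Mafg: ctctgcaggaGCACGGTCAacccggcgag
Mafk: gatcccggaaGCGGTGTCAgtactgggga
The Nfe2l2 stretch lies on the minus strand at chr2:75704885-75704913, 240 bases before the start. The Maff stretch lies on the plus strand at chr15:79346499-79346527, 112 bases before the start of 1 of its 3 windows. In Mafg (minus strand, chr11:120633751-120633779) and in Mafk (plus strand, chr5:139791513-139791541) the core was found as its reverse complement, 222 and 13 bases before the start. A match of letters is a description and not a binding site, and a link between the core and the changes below was not tested.

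Library totals ran from 2762287 to 7391991 counts. Levels below are in CPM, counts relative to library size, after TMM scaling of all 21 libraries (trimmed mean of M-values). Means are given ± SD of 3 libraries, and levels are compared between groups and never between genes. Changes are log2 fold changes ± SE from edgeR's quasi-likelihood test with Benjamini-Hochberg adjustment over all genes, and calls were made below an adjusted p of 0.05. The summed level of 11 of 12 microglial markers was 4791 to 5940 CPM in BV2 and 42.1 to 74.3 CPM in 1C11NE, where Aif1, Ptprc and C1qa were at 0 in every library. The noradrenergic label of 1C11NE could not be read from its markers: 3 of 6 could be analysed, Slc6a2, Slc18a2 and Phox2a. Together they reached 0.566 to 4.09 CPM in 1C11NE and much the same, 0.573 to 3.78 CPM, in BV2. Of 8 general neuronal markers 7 could be analysed, and together they reached 8.81 to 15.8 CPM in 1C11NE and 0 to 2.16 CPM in BV2. Most of the 1C11NE sum came from Map2 (5.59 to 11.1 CPM) and Tubb3 (2.01 to 5.97 CPM). Rbfox3, Snap25, Syp, Nefl and Stmn2 each stayed at or below 1.14 CPM in 1C11NE, and Syp reached 2.16 CPM in BV2. The first principal component of 1C11NE held 43.1% of the variance. It placed 7 of the 9 libraries with conditioned medium at 14.0 to 41.1 and the 6 libraries without it at -50.2 to -5.94. Replicate 1 of PBS-CM (-27.2) and replicate 3 of PBS-CM+ACR (-17.4) stood apart from the other 7 and fell among those 6.

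Across the 7 groups the regulators fell into different patterns. Sqstm1 was higher in every acrylamide group than in its own vehicle group, in both cell lines and with no overlap of libraries, and so was Mafg. Nfe2l2 itself was higher with acrylamide in BV2, while in 1C11NE its acrylamide groups overlapped their vehicle groups. Keap1, Bach1 and Nfe2l1 were lower in BV2_PBS than in PBS. Over the 5 groups of 1C11NE the ratio of the highest to the lowest mean was 2.73 for Mafg, 2.40 for Sqstm1 and 2.11 for Bach1, and 1.27 for Nfe2l1. Over all 7 groups it reached 13.0 for Bach1 and 11.9 for Nfe2l1.

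**Figure D1:**
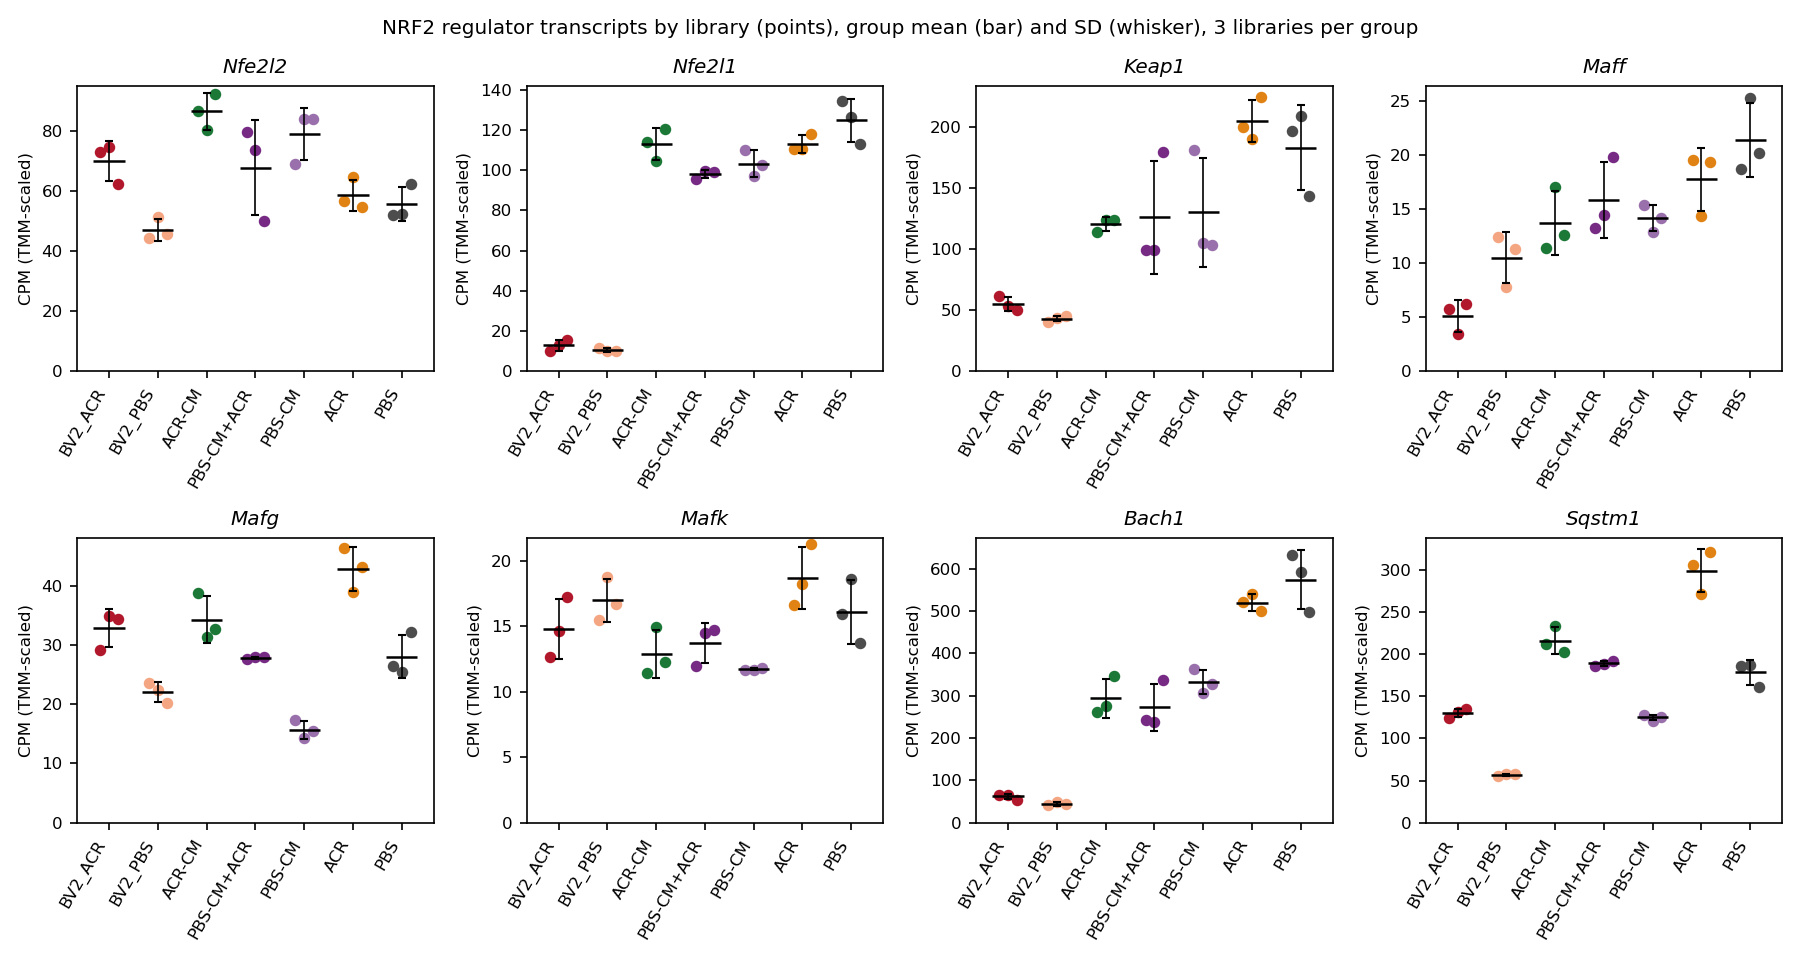
Transcript level in CPM (vertical axes, from 0) of the 8 regulators in each of the 7 groups, with a point for each of 3 libraries, the mean as a bar and the SD as an error bar. Sqstm1 and Mafg stand higher in each acrylamide group than in its vehicle group, Bach1 and Nfe2l1 are low in both BV2 groups, and Keap1 is spread widest in PBS-CM and PBS-CM+ACR.

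Sqstm1 encodes the selective autophagy receptor that links ubiquitin-tagged cargo to the autophagosome and binds KEAP1. It had 124, 131 and 135 CPM in BV2_ACR, against 55.5, 57.2 and 57.5 CPM in BV2_PBS. The lowest acrylamide library thus lay far above the highest vehicle library, and within each group the libraries lay close together. The log2 fold change was 1.16 ± 0.13, a 2.24-fold difference, with an adjusted p of 8.3e-06 (edgeR), and Sqstm1 ranked 22 by p among the 10890 genes tested in BV2. This call held without any 1 of the 6 libraries.

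In plain medium Sqstm1 reached 305, 271 and 321 CPM in ACR, against 186, 187 and 161 CPM in PBS. All acrylamide libraries were above all vehicle libraries. The difference was 0.73 ± 0.16 on the log2 scale and passed the test at an adjusted p of 0.038 (edgeR, 12550 genes). The call ended when any 1 of the 6 libraries was left out, with adjusted p at 0.069 to 0.15 (edgeR). In conditioned medium the gene had 212, 233 and 203 CPM in ACR-CM and 186, 188 and 192 CPM in PBS-CM+ACR, against 128, 121 and 126 CPM in PBS-CM. Both acrylamide groups were clear of PBS-CM, and the libraries of ACR-CM were all above those of PBS-CM+ACR. ACR-CM differed from PBS-CM by 0.79 ± 0.17 (adjusted p = 0.031, edgeR), a call that held only without PBS-CM replicate 1 when single libraries were left out, with adjusted p between 0.068 and 0.12 without any other (edgeR). For PBS-CM+ACR the difference from PBS-CM was 0.59 ± 0.17 with an adjusted p of 0.20 by edgeR and 0.00022 by DESeq2.

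Of the 7 groups, ACR held the highest mean level of Sqstm1, 299 ± 25.7 CPM, followed by ACR-CM at 216 ± 15.6 and PBS-CM+ACR at 189 ± 2.80 CPM. PBS came next at 178 ± 14.7 CPM and overlapped PBS-CM+ACR. BV2_ACR at 130 ± 5.18 CPM overlapped PBS-CM at 125 ± 3.46 CPM, and BV2_PBS was lowest at 56.7 ± 1.10 CPM. By annotation Sqstm1 shares 750 bases with Mrnip, a gene on the opposite strand, and since strand use in counting is not given, reads of the overlap cannot be told apart. Mrnip averaged 15.5 CPM in 1C11NE and 6.36 CPM in BV2, and its log2 changes of 0.61 in BV2, 0.39 in ACR, 0.29 in ACR-CM and 0.31 in PBS-CM+ACR ran in the direction of Sqstm1. In PBS-CM against PBS its change of 0.40 ran the other way.

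Mafg encodes a small Maf protein, one of the partners with which NRF2 binds its elements. It had 46.4, 39.0 and 43.2 CPM in ACR, against 26.5, 25.4 and 32.3 CPM in PBS. In conditioned medium it had 38.8, 31.4 and 32.8 CPM in ACR-CM and 27.7, 28.0 and 28.0 CPM in PBS-CM+ACR, against 17.3, 14.3 and 15.4 CPM in PBS-CM. In BV2 it had 29.1, 35.0 and 34.4 CPM in BV2_ACR, against 23.6, 22.5 and 20.2 CPM in BV2_PBS. None of these 4 pairs of groups overlapped.

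The largest of the 4 differences of Mafg was that of ACR-CM over PBS-CM, 1.13 ± 0.16 or 2.18-fold, with an adjusted p of 0.0016 (edgeR) that stayed below 0.022 without any 1 of the libraries of the 2 groups. PBS-CM+ACR was above PBS-CM by 0.82 ± 0.16 (adjusted p = 0.036, edgeR). That call held without PBS-CM replicate 1 and was lost without any of the other 5 libraries, at adjusted p of 0.0504 to 0.18 (edgeR). In plain medium the difference of 0.60 ± 0.15 did not pass (adjusted p = 0.068, edgeR) and was called by DESeq2 at 0.020. In BV2 it was 0.54 ± 0.18 (adjusted p = 0.044, edgeR), and without single libraries it held only without BV2_ACR replicate 1, with 0.089 to 0.12 otherwise (edgeR). DESeq2 gave 0.083 in BV2. The annotation puts 124 bases of Mafg within Sirt7 on the same strand, where reads can likewise not be told apart. Sirt7 (31.6 CPM in 1C11NE, 42.6 CPM in BV2) had log2 changes of 0.36, 0.05, 0.19 and 0.07 in these 4 comparisons.

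**Figure D2:**
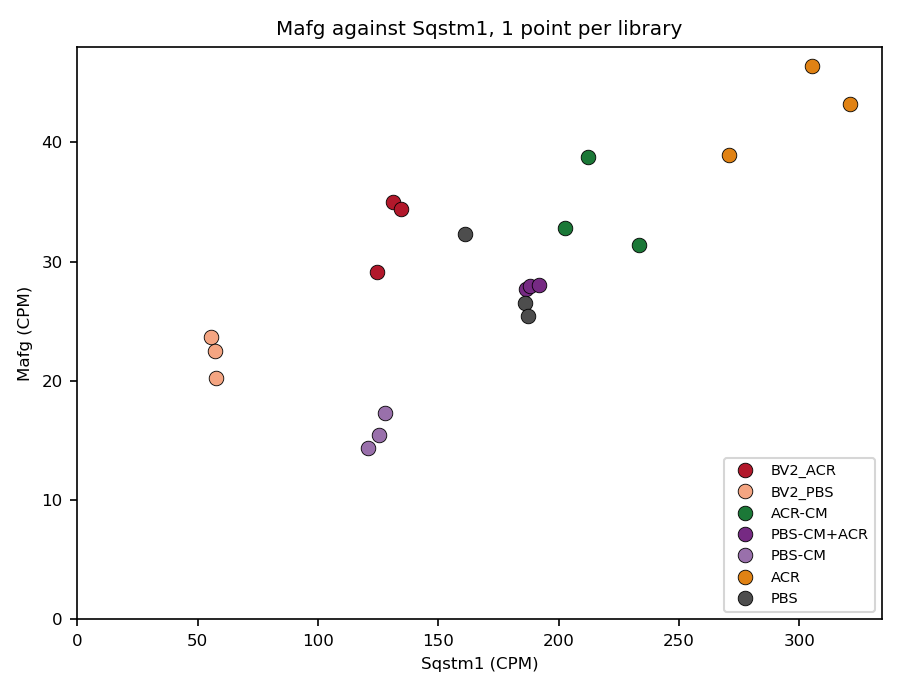
Mafg level (vertical axis) against Sqstm1 level (horizontal axis), both in CPM, with a point for each of the 21 libraries coloured by group. Among the 15 libraries of 1C11NE the points run along a band that starts at PBS-CM and ends at ACR, and the BV2 libraries lie above that band; at similar Sqstm1 levels, Mafg was at 29.1 to 35.0 CPM in BV2_ACR and 14.3 to 17.3 CPM in PBS-CM.

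The other small Mafs behaved differently. Maff had 5.73, 3.44 and 6.24 CPM in BV2_ACR, against 12.4, 7.81 and 11.3 CPM in BV2_PBS, from raw counts of 12 to 25 and 25 to 44. The groups did not overlap, and the difference of -1.05 ± 0.31 was called (adjusted p = 0.024, edgeR). The call was lost without BV2_PBS replicate 1 or BV2_ACR replicate 2 (0.12 each, edgeR) or without BV2_PBS replicate 3 (0.054). In 1C11NE the acrylamide differences of Maff lay between -0.29 and 0.15 with no call, over library values of 11.4 to 25.3 CPM. Mafk had 12.7, 14.6 and 17.2 CPM in BV2_ACR and 15.5, 18.7 and 16.7 CPM in BV2_PBS, which overlapped, and 11.4 to 21.3 CPM in 1C11NE. Its differences in the acrylamide comparisons, 0.13 to 0.22 in 1C11NE and -0.23 in BV2, did not pass. Counted together, Mafg made up 62.2 ± 3.33% of the counts of the 3 small Maf genes in BV2_ACR and 44.6 ± 2.30% in BV2_PBS. The shares in 1C11NE were 56.4 ± 6.71% in ACR-CM, 48.8 ± 3.80% in PBS-CM+ACR, 37.7 ± 1.19% in PBS-CM, 54.1 ± 2.35% in ACR and 42.9 ± 6.06% in PBS. In each of the 4 pairs the libraries of the acrylamide group were all above those of its vehicle group. These shares also carry the transcript lengths, so only their differences between groups can be read.

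Nfe2l2 had 73.1, 74.5 and 62.1 CPM in BV2_ACR, against 44.2, 51.2 and 45.6 CPM in BV2_PBS. The BV2 groups were apart, and the difference of 0.54 ± 0.15, or 1.45-fold, was called (adjusted p = 0.015, edgeR). It was lost without BV2_PBS replicate 1 (0.093) or BV2_ACR replicate 2 (0.062). In 1C11NE in plain medium the gene had 56.6, 64.4 and 54.6 CPM in ACR, against 52.1, 52.4 and 62.1 CPM in PBS. These groups overlapped, and the 95% interval of the log2 difference ran from -0.32 to 0.44. In conditioned medium it had 86.5, 80.3 and 92.3 CPM in ACR-CM and 79.6, 73.7 and 49.8 CPM in PBS-CM+ACR, against 68.8, 83.8 and 83.9 CPM in PBS-CM. The differences of 0.13 ± 0.18 for ACR-CM and -0.23 ± 0.18 for PBS-CM+ACR over PBS-CM did not pass, and PBS-CM+ACR replicate 3 was the lowest of the 9 libraries with conditioned medium.

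Nfe2l1 encodes NRF1, a relative of NRF2 in the endoplasmic reticulum membrane that raises proteasome genes when the proteasome is impaired. It had 10.0, 12.9 and 15.7 CPM in BV2_ACR and 11.5, 10.0 and 9.99 CPM in BV2_PBS, which overlapped. In 1C11NE its means lay close together, at 113 ± 7.91 CPM in ACR-CM, 98.0 ± 2.05 CPM in PBS-CM+ACR, 103 ± 6.66 CPM in PBS-CM, 113 ± 4.39 CPM in ACR and 125 ± 10.8 CPM in PBS. The acrylamide differences were 0.26 ± 0.25 in BV2 and -0.16 to 0.13 in 1C11NE, with no call.

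Keap1 encodes the electrophile sensor that holds NRF2 down. It had 61.8, 53.3 and 50.2 CPM in BV2_ACR, against 40.5, 43.4 and 45.4 CPM in BV2_PBS, groups that did not overlap. The difference of 0.32 ± 0.15 nevertheless missed the threshold (adjusted p = 0.15, edgeR). In 1C11NE it had 200.1, 190.4 and 224 CPM in ACR and 197, 209 and 144 CPM in PBS. In conditioned medium it had 114, 124 and 124 CPM in ACR-CM, 99.5, 99.4 and 179.7 CPM in PBS-CM+ACR and 181, 105 and 104 CPM in PBS-CM. The high values belonged to PBS-CM+ACR replicate 3 and PBS-CM replicate 1, the 2 libraries that stood apart on the principal component, and the other 7 libraries with conditioned medium lay between 99.4 and 124 CPM. Acrylamide differences in 1C11NE were 0.15 ± 0.26 in plain medium, -0.05 ± 0.26 for PBS-CM+ACR and -0.11 ± 0.26 for ACR-CM. Their 95% intervals, the widest reaching from -0.60 to 0.50 for PBS-CM+ACR, hold changes in either direction. Annotation places a gene antisense to Keap1, Gm16754, which was not analysed here.

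Bach1 encodes the repressor that heme and oxidants remove from antioxidant elements. It had 66.4, 65.0 and 54.2 CPM in BV2_ACR, against 40.5, 49.0 and 43.2 CPM in BV2_PBS. The groups did not overlap and the difference was 0.45 ± 0.15 at an adjusted p of 0.049 (edgeR). DESeq2 gave 0.091 and limma-voom 0.051, and without single libraries the call held without BV2_PBS replicate 2 or BV2_ACR replicate 3 and was lost without any of the other 4 (0.099 to 0.20, edgeR). In 1C11NE it had 520.1, 539 and 501 CPM in ACR and 633, 592 and 497 CPM in PBS. In conditioned medium it had 260.4, 275 and 347 CPM in ACR-CM, 242, 237 and 337 CPM in PBS-CM+ACR and 362, 305 and 327 CPM in PBS-CM. Bach1 was thus lower in every library with conditioned medium than in any library without it, and acrylamide differences of -0.29 to -0.16 on the log2 scale did not pass in 1C11NE.

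Read by comparison, acrylamide in BV2 changed 5 of 8 regulators, with Sqstm1, Nfe2l2, Mafg and Bach1 higher and Maff lower, where 16.5% of the 10890 genes tested were called (7.17% higher and 9.33% lower). Libraries of 5 regulators lay wholly above those of BV2_PBS, as did those of 18.6% of all genes, and those of 1 lay wholly below, as did those of 15.5%. In ACR against PBS 1 of 8 was called, Sqstm1, where 1.18% of 12550 genes were called and 0.462% were higher, and 2 of 8, Sqstm1 and Mafg, lay wholly above, as did 11.7% of all genes. In PBS-CM+ACR against PBS-CM 1 of 8 was called, Mafg, where 0.375% of all genes were called and 0.175% were higher. There 3 of 8, Mafg, Sqstm1 and Mafk, lay wholly above, as did 4.73% of all genes. ACR-CM against PBS-CM gave 2 of 8, Mafg and Sqstm1, where 0.924% of all genes were called and 0.446% were higher, and the same 2 lay wholly above, as did 10.3% of all genes. PBS-CM+ACR and ACR-CM were both set against the same 3 PBS-CM libraries, so their values are not independent. Summed microglial markers moved too, at 68.6 to 74.3 CPM in ACR-CM, 62.3 to 72.7 CPM in PBS-CM+ACR and 55.8 to 66.5 CPM in PBS-CM, and at 53.7 to 58.3 CPM in ACR and 42.1 to 48.9 CPM in PBS. Aif1, Ptprc and C1qa stayed at 0 in all of these libraries, and the part of the other markers in the results was not tested. The median log2 change of the 8 was 0.39 in BV2, 0.10 in ACR, 0.05 in PBS-CM+ACR and 0.13 in ACR-CM, beside 0.03, -0.002, -0.02 and -0.03 over all genes tested. In these bulk libraries fewer cells with a transcript and less transcript in each cell cannot be told apart.

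**Figure D3:**
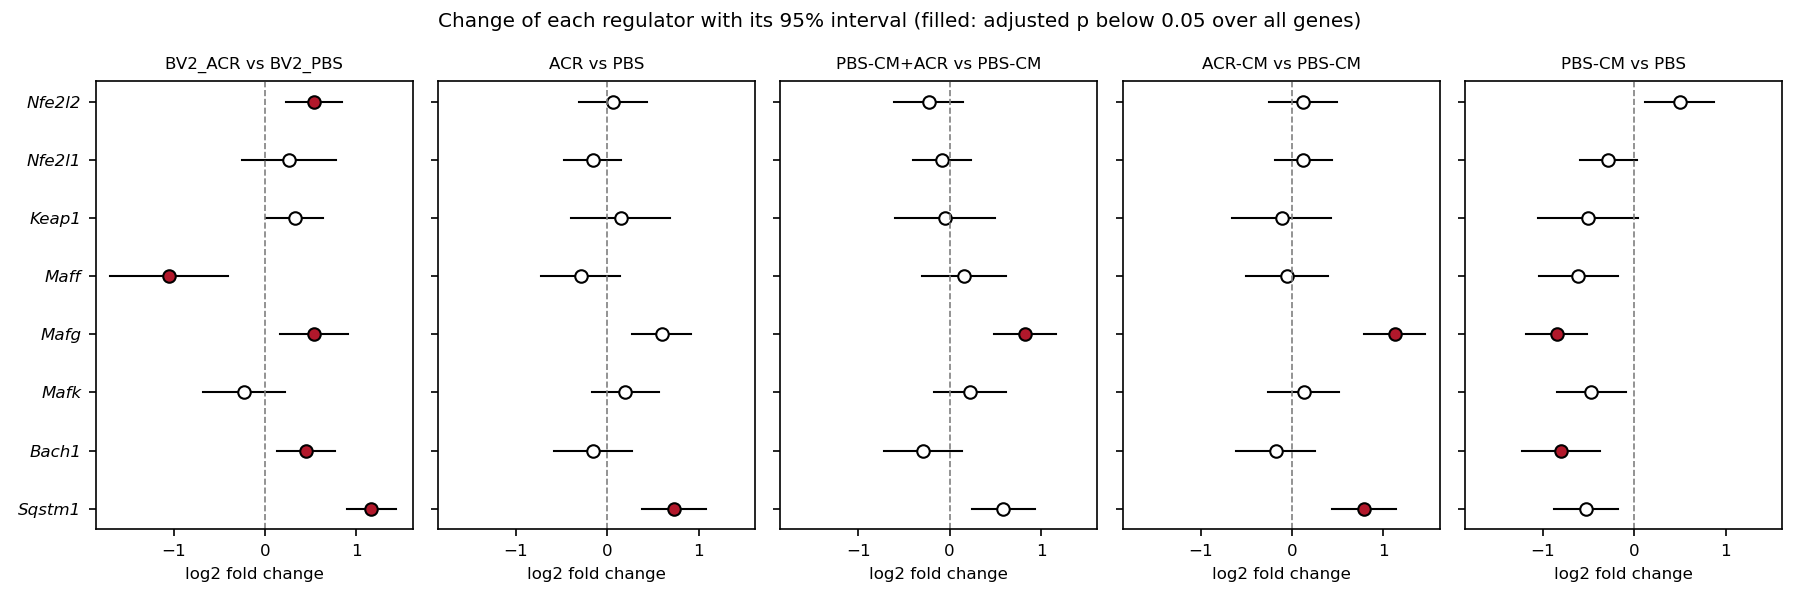
Log2 fold change of each regulator (horizontal axes) with its 95% interval in 5 comparisons, filled where the adjusted p was below 0.05 over all genes tested. Sqstm1 and Mafg lie right of 0 in the 4 acrylamide comparisons, and in PBS-CM against PBS 7 of the 8 lie left of 0, with Nfe2l2 on the right.

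The model also tested whether acrylamide acted differently in different settings. For acrylamide with conditioned medium minus acrylamide without it, 0 of 8 regulators were called by edgeR, DESeq2 or limma-voom and 0 of 8 had an unadjusted p under 0.05. Over all 12550 genes edgeR called 0 as well, with 347 at an unadjusted p under 0.05. The interval of this difference ran from -0.24 to 0.69 for Mafg and from -0.63 to 0.35 for Sqstm1, and differences inside these 95% intervals are not excluded. For the effect in BV2 minus that in 1C11NE in plain medium, 0 of 8 passed by any of the 3 tools, where edgeR called 0.567% of 13569 genes, and 3 of 8 had an unadjusted p under 0.05. These 3 were Bach1 at 0.61 ± 0.26, Sqstm1 at 0.44 ± 0.20 and Maff at -0.76 ± 0.35, with adjusted p of 0.27, 0.30 and 0.31 (edgeR). Calls of Nfe2l2, Bach1 and Maff in BV2 and not in 1C11NE are therefore not shown to differ between the lines.

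ACR-CM differed from PBS-CM+ACR in where the acrylamide had been given, to the donor BV2 cells or to the 1C11NE cells. By edgeR, DESeq2 and limma-voom 0 of 8 regulators were called and 0 of 8 had an unadjusted p under 0.05, and edgeR called 0.0159% of all genes. The libraries of Nfe2l2, Nfe2l1, Mafg and Sqstm1 lay wholly above in ACR-CM, as did those of 6.31% of all genes. Log2 differences were 0.36 ± 0.18 for Nfe2l2, 0.30 ± 0.16 for Mafg, 0.21 ± 0.15 for Nfe2l1 and 0.20 ± 0.16 for Sqstm1.

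Conditioned medium without acrylamide went with lower levels of Mafg and Bach1. In PBS-CM against PBS, Mafg fell by 0.85 ± 0.16 (15.7 ± 1.51 CPM against 28.1 ± 3.69 CPM, adjusted p = 0.0067, edgeR) and Bach1 by 0.80 ± 0.20 (332 ± 28.6 CPM against 574 ± 69.7 CPM, adjusted p = 0.035, edgeR) on the log2 scale. These 2 of 8 were the calls, where 4.55% of all genes were called and 2.06% were lower. Libraries of 6 of 8 lay wholly below PBS, as did 10.7% of all genes, and Nfe2l2 lay above it, as did 13.8%. The exception was Keap1, in which PBS-CM replicate 1 lay among the PBS libraries. Differences that did not pass were 0.50 ± 0.18 for Nfe2l2 (adjusted p = 0.10), -0.52 ± 0.16 for Sqstm1 (0.073), -0.61 ± 0.21 for Maff (0.088) and -0.51 ± 0.26 for Keap1 (0.23, all edgeR). Of these, DESeq2 called Sqstm1 (adjusted p = 0.00064) and Nfe2l2 (0.047). The PBS libraries of this comparison are also those of ACR against PBS, and its PBS-CM libraries are also those behind PBS-CM+ACR and ACR-CM. The microglial gene Ctss was at 1.09 to 2.92 CPM in PBS-CM and at 0 in all PBS libraries, and its part was not tested.

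The comparison was repeated with each of its libraries left out in turn, and leaving out PBS-CM replicate 1, which stood apart, changed the count most. The other single removals gave 0 to 1 of 8. Without PBS-CM replicate 1, 6 of 8 regulators were called by edgeR: Keap1 at -0.82 (adjusted p = 0.024), Maff at -0.67 (0.044), Sqstm1 at -0.54 (0.034), Nfe2l2 at 0.59 (0.029), and again Mafg and Bach1. Calls over all genes went up as well, to 25.5% of 12660 without that library, against 4.55% with it. Leaving out PBS-CM+ACR replicate 3 as well gave the same number of 6, where 35.1% of 12751 genes were called. Without other single libraries the call of Bach1 was lost (0.0501 to 0.16) and that of Mafg was lost without PBS-CM replicate 2 (0.053, edgeR). Whatever set PBS-CM replicate 1 apart was not tested.

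**Figure D4:**
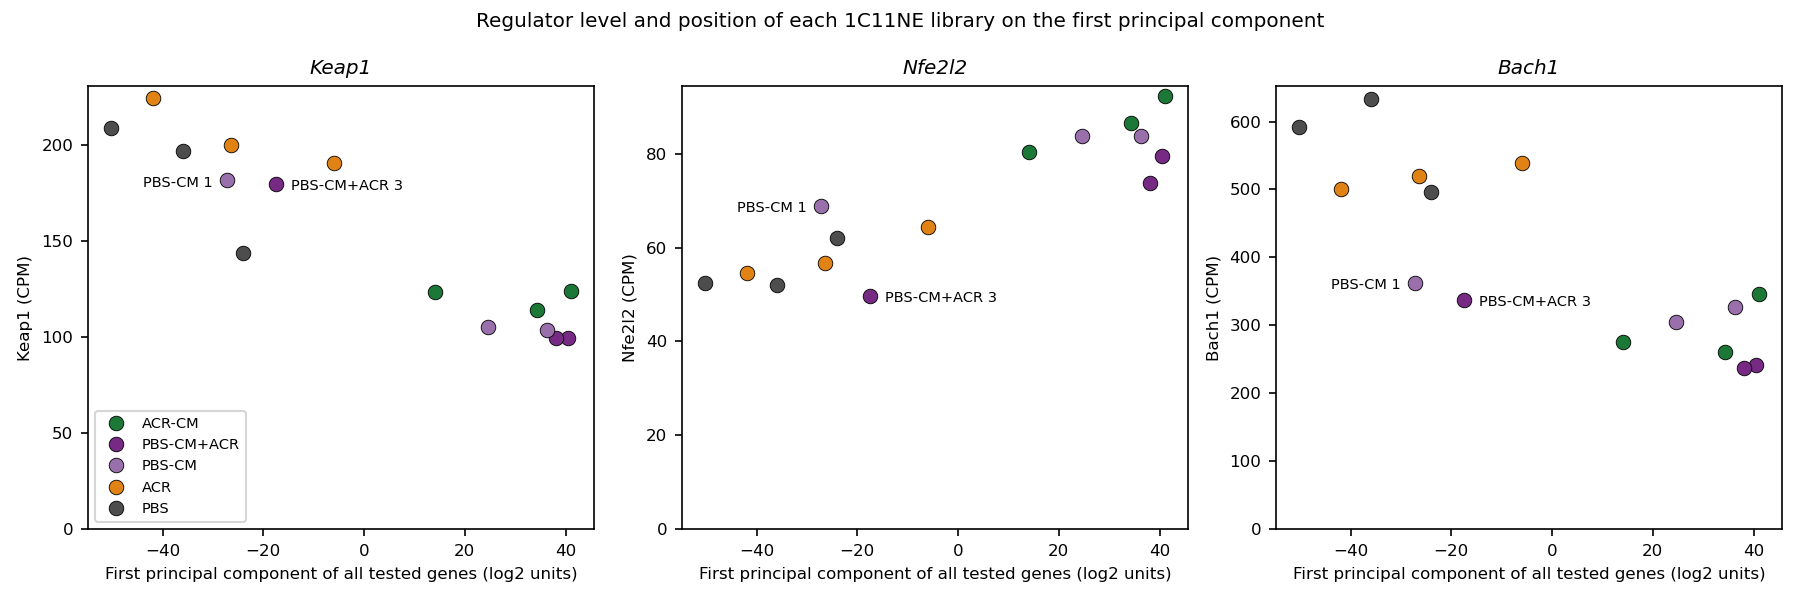
Level in CPM of Keap1, Nfe2l2 and Bach1 (vertical axes, from 0) against the position of each of the 15 libraries of 1C11NE on the first principal component of all tested genes. Replicate 1 of PBS-CM and replicate 3 of PBS-CM+ACR lie with the libraries without conditioned medium on the horizontal axis and in Keap1, and with the conditioned-medium libraries in Bach1.

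In BV2_PBS against PBS, 5 of 8 regulators were called and all 5 were lower in BV2_PBS, where 79.2% of 13569 genes were called and 43.1% were lower, so the share called was no larger than among all genes, and libraries of 7 of 8 lay wholly below, as did 45.8% of all genes. The median log2 difference of all genes was -0.25 (-0.18 with RLE size factors). Bach1 was at 44.3 ± 4.35 CPM in BV2_PBS and 574 ± 69.7 CPM in PBS (-3.65 ± 0.20), and Nfe2l1 at 10.5 ± 0.894 CPM in BV2_PBS and 125 ± 10.8 CPM in PBS (-3.52 ± 0.17). Keap1 was lower by -2.04 ± 0.24, Sqstm1 by -1.61 ± 0.14 and Maff by -0.98 ± 0.23, with adjusted p of at most 0.0006 (edgeR). No difference was called for Nfe2l2 (-0.19 ± 0.17), Mafg (-0.29 ± 0.16) or Mafk (0.12 ± 0.18). Line, strain and medium cannot be told apart here. Bach1 counts per Nfe2l2 count, a ratio that also carries transcript lengths, stood at 0.884 ± 0.0209 in BV2_ACR, 0.940 ± 0.0208 in BV2_PBS, 3.40 ± 0.373 in ACR-CM, 4.34 ± 2.10 in PBS-CM+ACR and 4.27 ± 0.866 in PBS-CM. It was 8.91 ± 0.469 in ACR and 10.5 ± 2.19 in PBS. The 3 values of BV2_ACR (0.871 to 0.908) lay narrowly below the 3 of BV2_PBS (0.917 to 0.957). Each BV2_PBS ratio rests on only 144 to 160 Bach1 counts and 157 to 169 Nfe2l2 counts, and whether the gap exceeds counting noise was not tested.

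Beyond the 8 genes, 27 further regulators of the pathway were examined, among them the KEAP1 ligase subunits Cul3 and Rbx1, the kinases Gsk3a and Gsk3b, coactivators, and the NRF1 activators Ddi2 and Ngly1. In the acrylamide comparisons of 1C11NE, 0 of 24 tested were called by edgeR in ACR, PBS-CM+ACR or ACR-CM, with 2, 3 and 3 at an unadjusted p under 0.05 and 0, 0 and 1 called by DESeq2. In BV2, 2 of 23 rose, among them Vcp at 0.56 ± 0.15 (the segregase p97, adjusted p = 0.017), and Rbx1 fell by 0.82 ± 0.17 (0.0022, edgeR). Of all genes tested in BV2, 7.17% were called higher and 9.33% lower, so these counts do not set the list apart. In PBS-CM against PBS the coactivator gene Crebbp was lower (-0.77 ± 0.21, adjusted p = 0.045, edgeR). The median over the list was 0.33 in BV2, 0.01 in ACR, 0.03 in PBS-CM+ACR and -0.02 in ACR-CM.

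Among 16 autophagy genes that work with p62, 0 were called by edgeR in the 3 acrylamide comparisons of 1C11NE, with 4 in ACR, 0 in PBS-CM+ACR and 4 in ACR-CM at an unadjusted p under 0.05 and 1, 0 and 0 called by DESeq2. In BV2, 3 of 14 rose, where 7.17% of all genes were called higher. They were the autophagy receptors Tax1bp1 (0.86 ± 0.14, adjusted p = 0.00044) and Nbr1 (0.55 ± 0.17, 0.033) and the autophagosome protein gene Map1lc3a (0.80 ± 0.18, 0.0052, all edgeR). Gabarapl1, another autophagosome protein gene, was higher in PBS-CM than in PBS (0.55 ± 0.15, adjusted p = 0.046, edgeR). Proteasome subunit genes, which NRF1 controls, gave 0 of 31 in the same 3 comparisons by edgeR, with 7 in ACR, 1 in PBS-CM+ACR and 11 in ACR-CM at an unadjusted p under 0.05 and 0, 0 and 1 by DESeq2. Most nevertheless lay above 0, with 30, 26 and 31 of 31 positive. Their median log2 changes were 0.37, 0.29 and 0.38, beside -0.002, -0.02 and -0.03 over all genes. In PBS-CM against PBS 29 of 31 were positive with a median of 0.44, and in BV2 8 of 31 with a median of -0.17. In BV2 Psma1, Psma2, Psmb1, Psmb2 and Psmb6 of the 20S core fell, by 0.38 to 0.51 on the log2 scale, and Psmd2 of the 19S cap rose by 0.52 ± 0.14. These were 5 lower and 1 higher of 31, where 9.33% of all genes were called lower and 7.17% higher. Psma2 was higher in PBS-CM than in PBS (0.97 ± 0.25, adjusted p = 0.038, edgeR).

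The enzymes and transporters that NRF2 turns on give a scale for these values. Of 20 such genes, 17 of 19 tested rose in BV2, 13 of 20 in ACR, 9 of 20 in PBS-CM+ACR and 12 of 20 in ACR-CM by edgeR, and 0 fell in any of these. Of all genes, 7.17%, 0.462%, 0.175% and 0.446% were called higher in these comparisons. Earlier results of these data had shown that the target genes rise, so the counts are no independent support. The median log2 changes of the target genes were 1.09 in BV2, 1.31 in ACR, 1.04 in PBS-CM+ACR and 1.21 in ACR-CM, against 0.39, 0.10, 0.05 and 0.13 for the 8 regulators. Nqo1, Gclm, Srxn1, Txnrd1, Pgd, Taldo1 and Blvrb rose in all 4 comparisons. G6pdx rose in BV2, PBS-CM+ACR and ACR-CM, Gstm1 in BV2, ACR and ACR-CM, Ftl1 in the 3 comparisons of 1C11NE, Gsta4 in ACR and ACR-CM, and Prdx1 in BV2, among others. Gclm, which encodes the modifier subunit of the glutathione-making ligase, rose by 2.31 ± 0.14 in BV2, 1.89 ± 0.16 in ACR, 1.10 ± 0.16 in PBS-CM+ACR and 1.26 ± 0.16 in ACR-CM. In PBS-CM against PBS, G6pdx was lower (-0.89 ± 0.17) and Blvrb higher (0.89 ± 0.20), and the acrylamide effect differed between the lines for Nqo1 (larger in BV2) and Ftl1 (smaller in BV2).

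**Figure D5:**
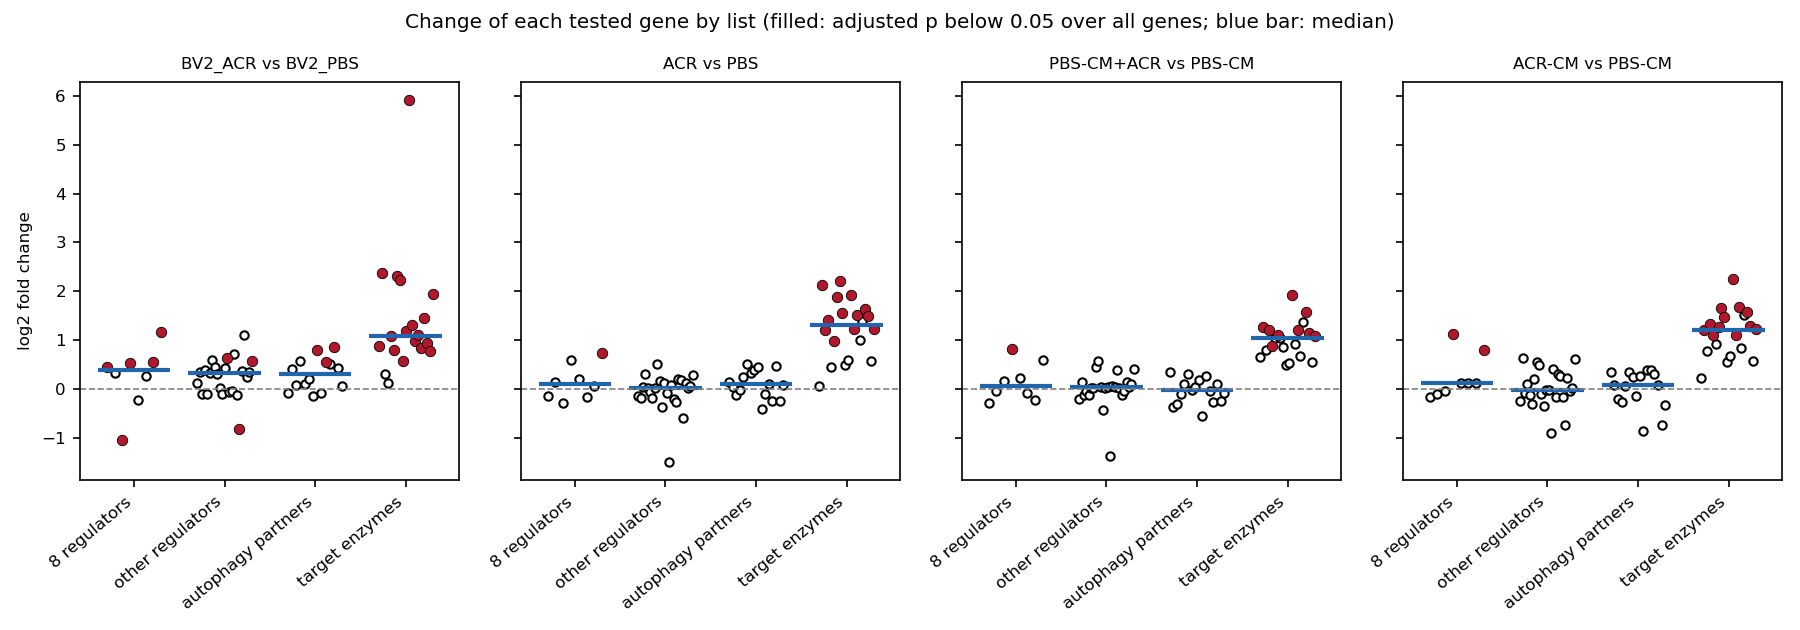
Log2 fold change (vertical axis) of every tested gene in 4 lists, in 4 acrylamide comparisons, filled where the adjusted p was below 0.05, with the median of each list as a blue bar. Target enzymes centre near 1 in all 4 panels, with medians of 1.04 to 1.31, while the medians of the 8 regulators lie between 0.05 and 0.39.

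The genes most like each regulator over the 15 libraries of 1C11NE were taken by Pearson's r of log2(CPM + 1) among 6175 genes that averaged 20 CPM or more. The libraries share treatments and 2 that stand apart, so these values are descriptions. Mafg was most like G6pdx (0.94), Sqstm1 (0.93) and Pgd (0.91), and Sqstm1 most like Pgd (0.95), Gdf15 (0.95) and Gstm1 (0.94). G6pdx and Pgd make NADPH in the pentose phosphate pathway, and Gstm1 is a glutathione transferase. Keap1 was most like Psap (0.98), which encodes the precursor of lysosomal saposins, LOC101055995 (0.97) and Clic4 (0.97). For Bach1 they included Sik1 and Cpt1a at 0.96 each. Nfe2l2 was most like Ezh2 (0.97), a histone methyltransferase, Asns (0.97), which makes asparagine, and Ugdh (0.96). For Nfe2l1 they were Hnrnpm (0.86), Mcm5 (0.84) and Ddx5 (0.83), for Maff Zfp282 (0.92), Col5a3 (0.91) and Zswim4 (0.91), and for Mafk Secisbp2 (0.90), Egr1 (0.89) and Clk3 (0.89). Among the 8 themselves Keap1 and Bach1 had an r of 0.85, and Nfe2l2 had -0.85 with Keap1 and -0.86 with Maff.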

How the data were processed

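The deposited values were raw read counts per gene symbol, whole numbers that the authors had not normalised. The labels' protocols describe capture of poly(A) RNA on oligo(dT) beads, enzymatic fragmentation and sequencing on an Ion GeneStudio S5. The submitters' processing notes name Bowtie2 2.2.5. Genome build, annotation, counting program and strand use are not given in sources used here. Reads shared by similar or overlapping genes may be split.

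Groups came from the sample titles. Counts were fitted with edgeR 4.0.16 in R 4.3.3 (TMM scaling, filterByExpr, robust quasi-likelihood). One fit held the 15 libraries of 1C11NE (12550 genes, biological coefficient of variation 0.211), another the 6 of BV2 (10890 genes, 0.136), and a joint fit of 21 (13569 genes, 0.197) served comparisons between lines. The code was tested on simulated data. Replicates differed beyond counting noise, with chi-square at least 2.53 times its degrees of freedom, so each library was counted.

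The 8 genes and all lists were chosen with earlier results of these data known. All 8 are named. Of the further regulators and the autophagy genes the rule was to name the called genes, at most 10 in each comparison of treatments by smallest adjusted p. For target enzymes and proteasome subunits only counts and medians had been planned, and the genes named from these lists go beyond that. Some genes under this rule are not reported here. DESeq2 1.42.0, limma-voom (limma 3.58.1), other size factors, no filter, a replicate block, only the compared groups and leaving out libraries were alternatives. Promoter sequences came from RefSeq (GRCm38.p6), overlaps from GENCODE.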

Additional observations from a re-analysis of the deposited data

How the results depend on the processing

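All 16 called changes of a regulator kept their direction in 193 recomputed values, and 141 of these were still called and 52 were not. The 5 calls in BV2_PBS against PBS were each kept in all 12 alternatives, so all 52 lost calls belonged to the treatment comparisons. Of 56 changes that were not called, 797 recomputed values gave 13 calls, and 24 had the other sign with no call. Percentages in brackets are the shares of all genes called in the same run. The number of regulators called was 1 in ACR against PBS (1.18%), where DESeq2 gave 2 (2.68%), no filter 0 (1.53%), and leaving out any 1 library 0 (0.561% to 0.853%). It was 1 in PBS-CM+ACR against PBS-CM (0.375%), with 2 by DESeq2 (1.04%), 0 with no filter (0.591%) and 0 with only the compared groups (0%). Without single libraries it was 0 to 1 (0.0869% to 0.571%). It was 2 in ACR-CM against PBS-CM (0.924%), with 1 with no filter (2.0%), 0 with only the compared groups (0.125%), and 1 to 2 without single libraries (0.276% to 0.735%). It was 2 in PBS-CM against PBS (4.55%), with 4 by DESeq2 (10.2%), 1 with only the compared groups (1.71%), and 0 to 6 without single libraries (0.838% to 25.5%). In BV2 it was 5 (16.5%), with 3 by DESeq2 (14.7%) and 1 to 4 without single libraries (8.2% to 17.0%). With the 2 libraries that stood apart left out together it was 2 in ACR against PBS, where 4.34% of all genes were called, and 6 in PBS-CM against PBS, where 35.1% were called (1.18% and 4.55% with all libraries). Counts for ACR-CM against PBS-CM+ACR and both interactions were 0, and 5 for BV2_PBS against PBS, in every alternative run. The cause of these differences was not tested. With RLE size factors 4 of 56 mean levels moved by over 1 SD, to 46.3 CPM for Keap1 in BV2_PBS, 27.7 for Mafg in PBS-CM+ACR, 11.6 for Mafk in PBS-CM and 60.9 for Sqstm1 in BV2_PBS. These alternatives were chosen after seeing the data: RLE levels, leave-one-out shares, and limma-voom and the 2-library removal for BV2_PBS against PBS.

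With a replicate block the counts were 0 in ACR against PBS, 0 in PBS-CM+ACR against PBS-CM, 1 in ACR-CM against PBS-CM, 1 in PBS-CM against PBS and 5 in BV2. Of all genes, 0.892%, 0.167%, 0.446%, 2.46% and 21.6% were called in these 5 comparisons, in the same order. Replicate numbers did not pair the samples of 1C11NE: over 30 same-numbered pairs of libraries the correlation ran between -0.55 and 0.44, and a library correlated best with its own number in 16 of 60 cases, each 1 library set against 1 other group. In BV2 the 3 pairs gave 0.029 to 0.12, with 5 of 6 cases, too few to say whether the numbers pair samples there.

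Low counts limited Maff in BV2.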
